A study of Mus musculus with 18 samples.

Results

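The Cyp4a genes of the mouse encode cytochrome P450 enzymes of the endoplasmic reticulum. Their values are described here for *Cyp4a10*, *Cyp4a12a*, *Cyp4a12b*, *Cyp4a14*, *Cyp4a31* and *Cyp4a32*, 6 of the 21899 genes measured, taken by name. The family was selected on its liver FPKM in mice on a high-salt diet (HSD) against a control diet (CON), which were already known. The liver difference of these 6 genes between the diets is therefore given as a description, without a test. Tests are given for other genes of the liver, and for the members in white adipose tissue and between tissues.

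Cyp4a enzymes place a hydroxyl group on the last carbon of fatty acids (omega-hydroxylation), a reaction that starts the conversion of fatty acids to dicarboxylic acids, which are then shortened in peroxisomes. The enzyme of *Cyp4a12a* also converts arachidonic acid to 20-HETE, a regulator of vessel tone and of salt transport in the kidney. In mouse liver, *Cyp4a10* and *Cyp4a14* are classical targets of PPARα, the nuclear receptor that senses fatty acids, whereas *Cyp4a12a* is the form typical of males, under the control of androgen and growth hormone.

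RNA-seq was performed on whole liver, white adipose tissue (WAT, the epididymal depot) and quadriceps muscle, with 3 CON and 3 HSD libraries for each of the 3 tissues. All mice were wild-type male C57BL/6 mice, 18 weeks old when the tissues were taken. The HSD group had received a NaCl-enriched diet with saline to drink for 12 weeks, and the CON group chow and tap water. Library names carry the mouse number (CON16, CON71, CON72, HS2, HS3 and HS5 in several tissues, CON14 and HS4 in liver only) and end in L, W or M for liver, WAT or muscle.

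The libraries held between 7628071 and 16637488 fragments. The labelled tissues carried their markers, with 24 of 24 hepatocyte genes at 1 FPKM or more in all 6 liver libraries and 12 of 12 adipocyte genes in all 6 WAT libraries. Of 12 skeletal muscle genes, 11 or 12 reached this level in the muscle libraries. Several libraries stood apart. Transcripts of the mitochondrial genome took 60.82% of the fragments of CON14L, 44.39% of HS5L, 37.84% of CON72L and 25.71% of CON16L, against 16.26% of HS2L and 15.38% of HS4L. CON16L held 11 of 12 skeletal muscle genes at 1 FPKM or more, with a summed level of 5083 FPKM against 2.764 to 7.339 FPKM in the other liver libraries. The WAT library HS3W held 20 of 20 epididymal epithelium genes at a sum of 22340 FPKM, against 1.322 to 14.28 FPKM in the other WAT libraries. CON16L, HS5L and the WAT library HS5W are not in the quality summary of the study, which gives no reason. Liver values are therefore given for the study's 4 liver libraries (CON14L, CON72L, HS2L and HS4L) and for all 6. WAT values are given for all 6 WAT libraries, with the fold changes of the tested members also without HS5W. In whole tissue, fewer cells of a type and less RNA per cell cannot be told apart.

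The 6 genes lie in 1 cluster on chromosome 4 of build mm10 (GENCODE M21 annotation). In order of position they are *Cyp4a12a* (ENSMUSG00000066071, chr4:115299046-115332815), *Cyp4a12b* (ENSMUSG00000078597, chr4:115411624-115439034), *Cyp4a14* (ENSMUSG00000028715, chr4:115486200-115496142), *Cyp4a10* (ENSMUSG00000066072, chr4:115518264-115533649), *Cyp4a31* (ENSMUSG00000028712, chr4:115563649-115579015) and *Cyp4a32* (ENSMUSG00000063929, chr4:115600969-115621602). *Cyp4a14* is on the minus strand and the others are on the plus strand. The same cluster holds *Cyp4a29* (chr4:115242084-115254557) and *Cyp4a30b* (chr4:115452604-115471062), which are not members.

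The coding sequences are 507 to 509 codons long and fall into 3 groups. The stretch of 45 bases around the cysteine that holds the haem iron, the catalytic centre of every P450, shows these groups. It is shown for 1 copy of each group, read 5′ to 3′ on the coding strand across exons 11 and 12, with the cysteine codon in capitals.
Cyp4a10: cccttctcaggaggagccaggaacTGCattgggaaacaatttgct
Cyp4a12a: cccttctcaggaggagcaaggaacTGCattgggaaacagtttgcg
Cyp4a14: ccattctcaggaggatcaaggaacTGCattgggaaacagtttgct
The stretch spans chr4:115529499-115532555 in *Cyp4a10*, chr4:115328983-115331858 in *Cyp4a12a* and chr4:115487287-115489808 on the minus strand in *Cyp4a14*, introns included. *Cyp4a31* and *Cyp4a32* hold the same 45 bases as *Cyp4a10*, and *Cyp4a12b* the same as *Cyp4a12a*. Between the groups 3 or 4 of the 45 bases differ. The cysteine is codon 456 in *Cyp4a10*, *Cyp4a31* and *Cyp4a32*, codon 455 in *Cyp4a12a* and *Cyp4a12b* and codon 454 in *Cyp4a14*.

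Over the whole coding sequence, *Cyp4a12a* and *Cyp4a12b* were 98.5% identical and differed at 23 bases. *Cyp4a10*, *Cyp4a31* and *Cyp4a32* were 96.0% to 97.2% identical to each other. *Cyp4a14* was the most distant, at 75.4% to 75.9% identity to the others. Reads of so close a pair can be told apart only over differing bases, and the stretch of exon 6 that holds 4 of the 23 differences (codons 214 to 228) is shown with these bases in capitals.
Cyp4a12a: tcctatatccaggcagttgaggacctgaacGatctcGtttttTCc
Cyp4a12b: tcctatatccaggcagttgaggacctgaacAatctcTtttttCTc
These lie at chr4:115326638-115326682 and chr4:115432891-115432935, on the plus strand.

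The stretch of exons 1 and 2 that holds 7 of the 77 positions at which *Cyp4a10*, *Cyp4a31* and *Cyp4a32* are not all alike (codons 63 to 77) is shown in the same way.
Cyp4a10: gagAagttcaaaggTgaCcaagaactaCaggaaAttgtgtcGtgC
Cyp4a31: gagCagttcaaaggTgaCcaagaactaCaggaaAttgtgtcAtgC
Cyp4a32: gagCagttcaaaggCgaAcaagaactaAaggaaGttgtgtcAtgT
With their intron, these span chr4:115518508-115519671, chr4:115563903-115565051 and chr4:115601161-115602301 on the plus strand.

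Of all windows of 150 bases in a whole transcript of *Cyp4a12a*, 25.6% occurred unchanged in that of *Cyp4a12b*. The share with an exact copy in another member was 7.97% for *Cyp4a32*, 4.34% for *Cyp4a10*, 4.19% for *Cyp4a31* and 0 for *Cyp4a14*. How fragments that match several copies were counted is not given in the sources used here. The split between *Cyp4a12a* and *Cyp4a12b*, and between *Cyp4a10*, *Cyp4a31* and *Cyp4a32*, is therefore uncertain, whereas *Cyp4a14* has no such overlap.

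In the liver of CON mice, *Cyp4a12a* was the most abundant member by FPKM, a count of fragments scaled to gene length and library total. Its mean was 122.7 FPKM ± 54.2 (SD, n = 3), followed by *Cyp4a10* at 27.7 ± 20.3 and *Cyp4a12b* at 22.7 ± 4.52. *Cyp4a32* had 11.0 ± 5.73 FPKM, *Cyp4a14* 5.43 ± 4.05 and *Cyp4a31* 0.865 ± 0.569. Of the neighbours in this order, the libraries of *Cyp4a12a* and *Cyp4a10*, of *Cyp4a12b* and *Cyp4a32*, and of *Cyp4a14* and *Cyp4a31* did not overlap, although the lowest *Cyp4a12b* value (17.52 FPKM) and the highest *Cyp4a32* value (17.41 FPKM), both of CON14L, were nearly equal. The libraries of *Cyp4a10* and *Cyp4a12b*, and of *Cyp4a32* and *Cyp4a14*, overlapped.

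In HSD liver *Cyp4a10* had the highest mean, at 97.7 FPKM ± 63.0 (SD, n = 3), and *Cyp4a12a* followed at 64.8 ± 24.2. *Cyp4a14* had 27.7 ± 21.1 FPKM, *Cyp4a12b* 18.6 ± 3.50, *Cyp4a32* 11.1 ± 2.56 and *Cyp4a31* 3.40 ± 2.34. The libraries of *Cyp4a10*, *Cyp4a12a*, *Cyp4a14* and *Cyp4a12b* overlapped from each to the next in this order, while those of *Cyp4a12b*, *Cyp4a32* and *Cyp4a31* did not.

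*Cyp4a10*, the PPARα target with the highest level of the group, had 5.408 FPKM in CON14L, 32.55 in CON72L and 45.1 in CON16L. It had 146.6 FPKM in HS2L, 119.9 in HS4L and 26.57 in HS5L, from 87 fragments in CON14L up to 3222 in HS2L. HS2L and HS4L were above every CON library, and HS5L lay below CON72L and CON16L. In the study's 4 liver libraries the HSD mean was 133.3 FPKM ± 18.9 (SD, n = 2) against 19.0 ± 19.2 (n = 2), a log2 fold change of 3.25 (SE 0.73) on the log2(FPKM + 0.5) scale. Over all 6 libraries it was 1.92 (SE 0.93).

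*Cyp4a14*, the other classical target of PPARα, had 1.361 FPKM in CON14L, 5.463 in CON72L and 9.456 in CON16L. It had 44.01 FPKM in HS2L, 35.07 in HS4L and 3.913 in HS5L. The same libraries were high as for *Cyp4a10*, and HS5L again lay within the CON range. HSD over CON gave 3.58 (SE 0.52) on the log2 scale in the study's 4 liver libraries and 1.99 (SE 0.97) in all 6.

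*Cyp4a31*, a close copy of *Cyp4a10*, was the member with the lowest level. It had 0.209 FPKM in CON14L, 1.22 in CON72L and 1.165 in CON16L, against 4.666 in HS2L, 4.838 in HS4L and 0.6994 in HS5L. These values rest on 4 to 126 fragments per library. HS2L and HS4L were above all CON libraries and HS5L was within their range, as for *Cyp4a10* and *Cyp4a14*. Its log2 fold change was 2.25 (SE 0.40) in the study's 4 liver libraries and 1.34 (SE 0.63) in all 6.

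*Cyp4a12a*, the male form that makes 20-HETE, had 60.03 FPKM in CON14L, 153.4 in CON72L and 154.6 in CON16L. In the HSD group it had 83.64 FPKM in HS2L, 73.31 in HS4L and 37.48 in HS5L. All HSD libraries were below CON72L and CON16L, but HS2L and HS4L were above CON14L, so that the groups overlapped. HSD minus CON was -0.29 (SE 0.57) on the log2 scale in the study's 4 liver libraries and -0.87 (SE 0.53) in all 6.

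*Cyp4a12b*, the near-identical neighbour of *Cyp4a12a*, varied less. It had 17.52, 25.19 and 25.5 FPKM in CON14L, CON72L and CON16L, and 20.19, 20.96 and 14.56 in HS2L, HS4L and HS5L. The order of the libraries was that of *Cyp4a12a* in CON, and HS5L was the lowest HSD library for both. On the log2 scale the change was -0.03 (SE 0.38) in the study's 4 liver libraries and -0.28 (SE 0.31) in all 6.

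*Cyp4a32*, although close in sequence to *Cyp4a10*, did not follow it. It had 17.41 FPKM in CON14L, the highest value of the 6, then 6.334 in CON72L and 9.35 in CON16L. The HSD libraries lay within this range, with 8.497 FPKM in HS2L, 13.61 in HS4L and 11.27 in HS5L. Its log2 fold change was 0.026 (SE 0.49) in the study's 4 liver libraries and 0.10 (SE 0.40) in all 6, and it became -0.18 with median-ratio scaling of the study's libraries.

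**Figure D1:**
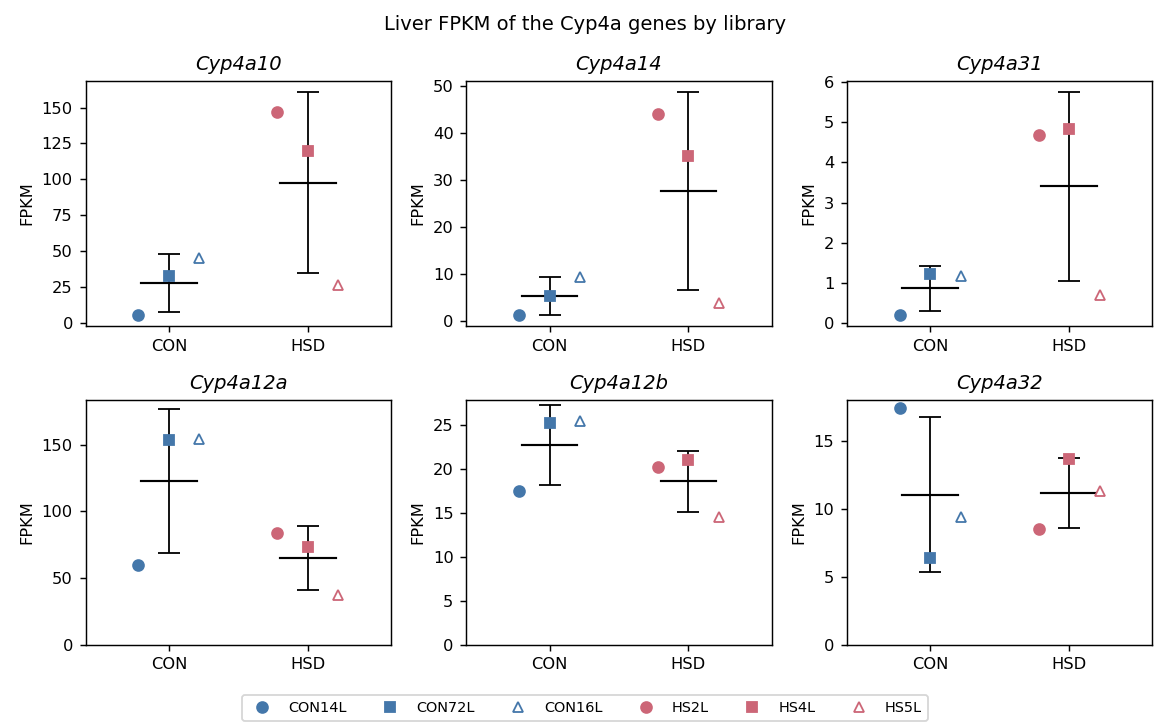
FPKM of each Cyp4a gene (y axis, linear, a scale for each gene) in the 3 CON (blue) and 3 HSD (red) liver libraries. Each symbol is 1 library as named in the legend, open symbols are CON16L and HS5L, and the line with error bars is the mean ± SD of the 3 libraries. For *Cyp4a10*, *Cyp4a14* and *Cyp4a31*, HS2L and HS4L lie above all CON libraries and HS5L lies within the CON range.

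Since the liver contrast chose the family, no call of a member is given there. By the threshold used throughout (limma, Benjamini-Hochberg adjusted p under 0.05 and a change of at least 2-fold), 0.351% of 9970 genes were called in the study's 4 liver libraries, 20 higher and 15 lower. With median-ratio scaling the split was 5 higher and 10 lower, and without the mitochondrially encoded genes it was 26 higher and 170 lower. Values did not overlap for *Cyp4a10*, *Cyp4a14* and *Cyp4a31*, all higher in HSD, as for 45.3% of all genes. Over all 6 libraries every member overlapped, and limma called 0 of 10317 genes (0%), with 592 at an unadjusted p under 0.05, 926 with limma's arrayWeights and 0 with limma voom. All tested genes had a median of 0.24 in the study's libraries and 0.13 in all.

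Single liver libraries moved these values. In the study's libraries without CON14L, the log2 fold change of *Cyp4a10* was 2.01, beside 2.74 for *Cyp4a14* and 1.61 for *Cyp4a31*. Without CON72L it was 4.49, 4.42 and 2.89. For *Cyp4a12a*, *Cyp4a12b* and *Cyp4a32* the sign depended on which of these CON libraries was kept. *Cyp4a12a* had -0.97 without CON14L and 0.38 without CON72L, *Cyp4a12b* had -0.29 and 0.23, and *Cyp4a32* had 0.72 and -0.67. Over all libraries, leaving out CON16L, which held muscle transcripts, gave 2.49 for *Cyp4a10*, 2.52 for *Cyp4a14* and -0.64 for *Cyp4a12a*, and leaving out HS5L gave 2.68, 3.05 and -0.52.

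**Figure D2:**
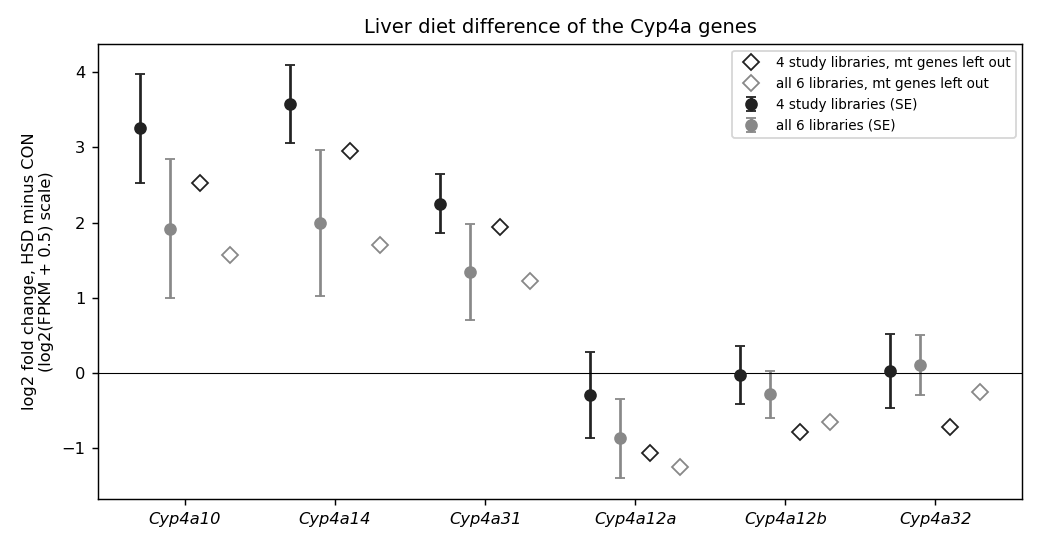
Difference of HSD minus CON in liver on the log2(FPKM + 0.5) scale (y axis) for each Cyp4a gene (x axis). Filled circles with bars of 1 SE are the study's 4 libraries (black) and all 6 (grey), and open diamonds, drawn without an error, are the same with mitochondrially encoded genes left out. *Cyp4a10*, *Cyp4a14* and *Cyp4a31* are above 0 in all 4 fits shown, while *Cyp4a12a* and *Cyp4a12b* are below 0 in all 4.

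The 2 liver libraries outside the study's quality summary gave a different picture when set side by side. HS5L had 0.414 of the CON16L level for *Cyp4a14*, 0.589 for *Cyp4a10* and 0.600 for *Cyp4a31*. The ratio was 0.243 for *Cyp4a12a*, 0.571 for *Cyp4a12b* and 1.21 for *Cyp4a32*. With 1 library a side this comparison has no replicate check.

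The makeup of the family is a comparison within a library, so that the library total cancels. *Cyp4a10*, *Cyp4a14* and *Cyp4a31* together made up 6.85% of the summed Cyp4a FPKM in CON14L, 17.5% in CON72L and 22.7% in CON16L. They made up 63.5% in HS2L, 59.7% in HS4L and 33.0% in HS5L. All 3 HSD libraries were above all 3 CON libraries on this measure, HS5L included. These 3 members are put together by their liver values, not by sequence, which places *Cyp4a32* with *Cyp4a10* and *Cyp4a31*. The grouping thus follows the values that chose the family, and this separation is a description only. *Cyp4a12a* and *Cyp4a12b* together were on the other side, with 73.5% to 79.7% of the sum in the CON libraries and 33.8%, 35.2% and 55.1% in HS2L, HS4L and HS5L.

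The ratio of *Cyp4a10* to *Cyp4a12a* was 0.0901, 0.212 and 0.292 in CON14L, CON72L and CON16L. It was 1.75, 1.64 and 0.709 in HS2L, HS4L and HS5L, so the groups did not overlap. How often other pairs of genes separate in this way was not computed. *Cyp4a32* made up 17.1% of the sum in CON14L and 11.9% in HS5L, and 2.76% to 5.08% in the other 4 libraries. The summed level itself was 101.9, 224.1 and 245.1 FPKM in the CON libraries and 307.6, 267.7 and 94.5 FPKM in the HSD libraries, and overlapped between the groups. These shares come from the values that chose the family and were not tested.

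**Figure D3:**
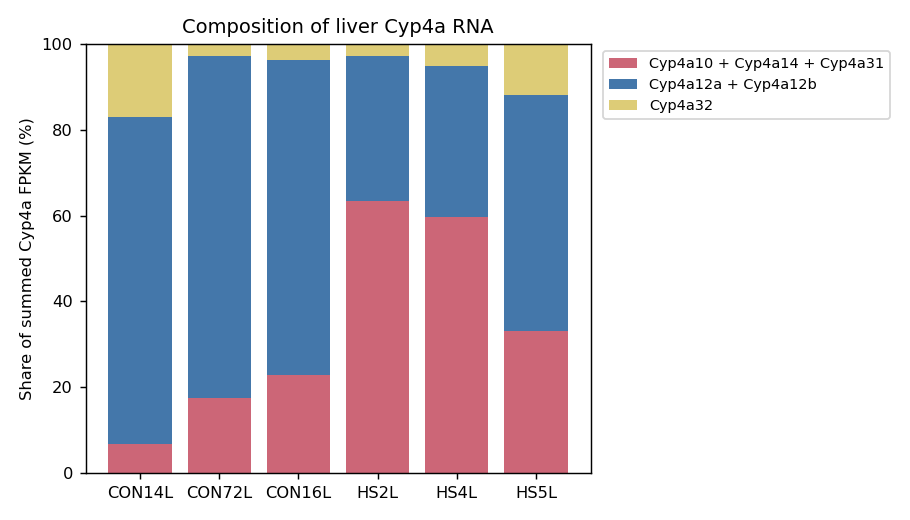
Share of the summed Cyp4a FPKM (y axis, percent, stacked to 100) in each liver library (x axis). The stacked parts are *Cyp4a10*, *Cyp4a14* and *Cyp4a31* together, *Cyp4a12a* and *Cyp4a12b* together, and *Cyp4a32*. The share of *Cyp4a10*, *Cyp4a14* and *Cyp4a31* together is 6.85% to 22.7% in the CON libraries and 33.0% to 63.5% in the HSD libraries.

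The mitochondrial share of a library, and the level of hepatocyte genes, moved with the Cyp4a values. HS2L and HS4L, with the highest *Cyp4a10* and *Cyp4a14*, had the lowest mitochondrial shares, and CON14L and HS5L, with the lowest, had the highest. The median hepatocyte gene stood at 40.2%, 117% and 141% of its CON liver mean in CON14L, CON72L and CON16L, and at 207%, 193% and 90.0% in HS2L, HS4L and HS5L. From lowest to highest this is the order of the libraries for *Cyp4a10* and *Cyp4a14* as well. Over the hepatocyte list, 23 of 24 genes had a positive log2 fold change in the study's libraries, with a median of 1.65, and 23 of 24 in all libraries, with a median of 0.86. The part of either quantity in the Cyp4a values was not tested.

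The values were also computed without the mitochondrially encoded genes, on the total of the remaining fragments. *Cyp4a10* had 13.8, 52.4 and 60.7 FPKM in CON14L, CON72L and CON16L and 175.1, 141.7 and 47.8 in HS2L, HS4L and HS5L. *Cyp4a14* had 3.47, 8.79 and 12.7 against 52.6, 41.5 and 7.04 FPKM. HS2L and HS4L stayed above every CON library for both genes, and HS5L stayed within the CON range. The log2 fold changes were 2.52, 2.96 and 1.95 for *Cyp4a10*, *Cyp4a14* and *Cyp4a31* in the study's libraries, where the median of all genes was -0.43, and 1.57, 1.70 and 1.22 over all 6, where it was -0.20.

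On this scale *Cyp4a12a* had 153.2, 246.7 and 208.1 FPKM in CON14L, CON72L and CON16L and 99.9, 86.6 and 67.4 in HS2L, HS4L and HS5L. All HSD libraries were then below all CON libraries. The same held for *Cyp4a12b*, with 44.7, 40.5 and 34.3 against 24.1, 24.8 and 26.2 FPKM. Of all genes, 6.63% were lower without overlap over all 6 libraries on this scale. The log2 fold change over all 6 was -1.25 for *Cyp4a12a* and -0.65 for *Cyp4a12b*. *Cyp4a32* overlapped on this scale too, with 44.4, 10.2 and 12.6 against 10.1, 16.1 and 20.3 FPKM.

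**Figure D4:**
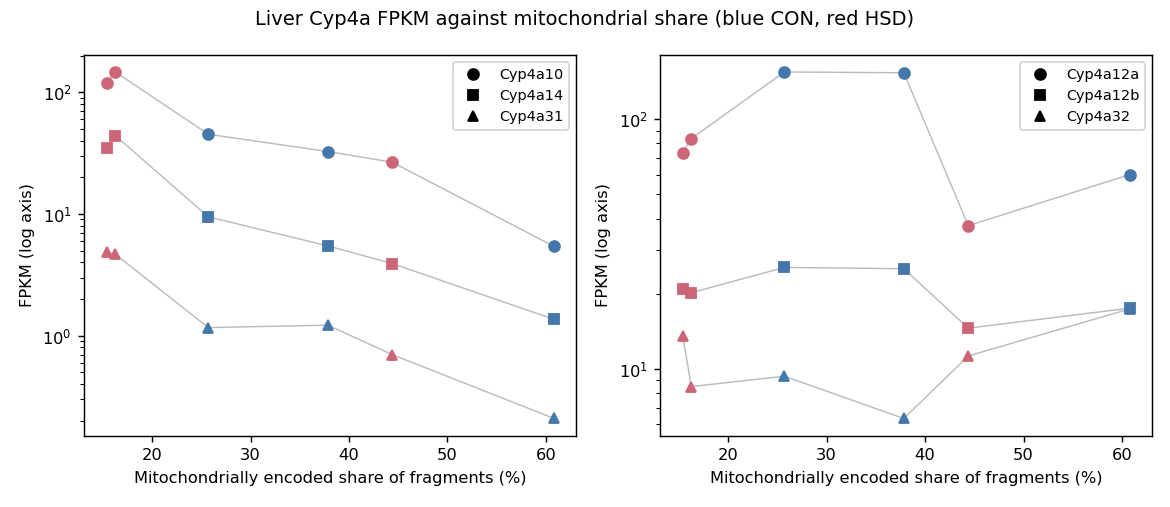
FPKM of the Cyp4a genes (y axis, log scale) against the share of fragments from mitochondrially encoded genes (x axis, percent) in the 6 liver libraries, CON in blue and HSD in red, with grey lines joining the values of a gene. The 2 libraries with shares of 15.38% and 16.26%, HS4L and HS2L, have the highest *Cyp4a10*, *Cyp4a14* and *Cyp4a31*, and CON14L, with 60.82%, has the lowest.

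Across the 6 liver libraries, which share their depth and mitochondrial differences, *Cyp4a10*, *Cyp4a14* and *Cyp4a31* varied together. So did *Cyp4a12a* and *Cyp4a12b*, while *Cyp4a32* stood apart. For *Cyp4a14* and *Cyp4a32* this differs from the groups by coding sequence. Pearson's r of log2(FPKM + 0.5) was 0.987 for *Cyp4a14* and *Cyp4a31*, 0.973 for *Cyp4a10* and *Cyp4a14*, and 0.982 for *Cyp4a12a* and *Cyp4a12b*. It was 0.214 for *Cyp4a12a* and *Cyp4a14*, and between -0.644 and -0.286 for *Cyp4a32* with each other member. *Cyp4a14*, with no shared sequence windows, varied with *Cyp4a10* and *Cyp4a31*, whereas *Cyp4a32*, with shared windows, did not.

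Of the 10316 other genes, the 5 most like *Cyp4a14* over these libraries were *Nras* (r = 0.998), *Fga*, a fibrinogen chain and hepatocyte marker (0.997), *Pigyl* (0.997), *Selenos* (0.997) and *Bbox1*, the last enzyme of carnitine synthesis (0.996). *Cyp4a31* ranked 49 and *Cyp4a10* 212 in this list. The 5 most like *Cyp4a12a* were *Prkce*, a protein kinase C (0.986), *Cyp4a12b* (0.982), *Dglucy* (0.978), *Ly6e* (0.973) and *Gpam*, which starts triglyceride synthesis (0.964). These are descriptions over 6 libraries.

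The partners of the Cyp4a enzymes and the other targets of PPARα were described by fixed lists over the same liver libraries, and no gene of these lists was called by limma in either set. limma voom called none, and limma's arrayWeights called 2 peroxisomal, 3 mitochondrial and 2 male-biased genes in the study's libraries, beside 757 of all 9970 genes. Over all 6 libraries arrayWeights called 1 partner of omega-oxidation, 3 peroxisomal, 11 mitochondrial, 2 other PPARα and 2 male-biased genes, beside 926 of all 10317. At an unadjusted p under 0.05, the study's libraries held 12 of 15 mitochondrial, 6 of 17 peroxisomal, 2 of 10 partner and 2 of 12 other PPARα genes, all positive, beside 3164 of 9970 genes in all, and over all 6 libraries 1, 2, 0 and 0 of these genes were under this level, beside 592 of 10317. The receptors held 1 such gene in either set, the male-biased genes 3 in the study's libraries and 2 in all, the growth hormone axis 1 and 0, and the other Cyp4 genes none. The other Cyp4 genes (Cyp4b, Cyp4f, Cyp4v and others), 7 of 14 with enough signal, had a median log2 fold change of -0.17 in the study's libraries and 0.046 in all. *Cyp4f14*, which hydroxylates leukotriene B4, had 37.7 FPKM ± 5.87 in CON and 50.2 ± 5.88 in HSD of the study's libraries (SD, n = 2), a log2 fold change of 0.41 (limma, Benjamini-Hochberg adjusted p = 0.526). *Cyp4f17* (-0.86), *Cyp4b1* (-0.70) and *Cyp4v3* (0.70) had the largest values of the list, with adjusted p of 0.186, 0.176 and 0.362 in the same limma fit.

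The partners of omega-oxidation pass electrons to P450 or oxidise the hydroxyl group further. Of 10 tested, 9 had a positive log2 fold change in the study's libraries (median 0.85) and 10 in all (median 0.54). Without CON14L the medians were 0.45 and 0.12, and 7 of the 10 were positive over all the other libraries. *Por*, the reductase that serves every microsomal P450, had 14.31, 23.32 and 32.92 FPKM in CON14L, CON72L and CON16L and 34.46, 22.95 and 21.91 in HS2L, HS4L and HS5L. The groups overlapped, and its log2 fold change in the study's libraries was 0.61 (limma, adjusted p = 0.349). The largest values of the list were those of *Adh5* (1.78), *Cyb5a*, cytochrome b5 (1.61), and *Adh1* (1.32), with limma adjusted p of 0.107, 0.181 and 0.261.

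Of 17 tested genes of peroxisomal beta-oxidation, which shortens the dicarboxylic acids, 14 had a positive log2 fold change in the study's libraries (median 0.58), and 14 in all (median 0.43, or 0.18 without CON14L). *Ehhadh*, the bifunctional enzyme of this pathway, had 4.837, 17.34 and 17.63 FPKM in the CON libraries and 45.29, 36.19 and 7.182 in HS2L, HS4L and HS5L. HS5L again lay within the CON range. Its log2 fold change in the study's libraries was 2.07 (SE 0.56, limma adjusted p = 0.0734). *Nudt19* had 1.61 (limma adjusted p = 0.0587) and *Crot* 1.48 (limma adjusted p = 0.0853).

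Among mitochondrial targets of PPARα, 14 of 15 were positive in the study's libraries (median 1.23) and 13 of 15 in all (median 0.65, or 0.30 without CON14L). *Cpt1a*, which admits fatty acids to the mitochondrion, had 12.52, 11.69 and 14.74 FPKM in CON14L, CON72L and CON16L and 28.81, 29.18 and 17.85 in HS2L, HS4L and HS5L. All HSD libraries were above all CON libraries, as for 8.62% of the genes tested. Of the 15 genes of the list, only 1 was higher without overlap over all 6 libraries and 1 was lower. The log2 fold change of *Cpt1a* was 1.23 in the study's libraries (limma adjusted p = 0.0806) and 0.91 in all (limma adjusted p = 0.764). *Acaa2* (2.21) and *Cpt2* (1.95) had the largest values of the list in the study's libraries, with limma adjusted p of 0.0772 and 0.0672.

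Of 12 other PPARα targets, 11 were positive in the study's libraries (median 0.68) and 6 in all (median 0.061, or -0.16 without CON14L and 0.51 without CON16L). The largest values in the study's libraries were those of *Plin2*, a lipid droplet protein (1.36), *Acot1* (1.19) and *Pdk4* (0.88). Their limma adjusted p were 0.0809, 0.0874 and 0.221. Over all 6 libraries these genes had 0.90, 0.45 and -0.50, so that *Pdk4* changed sign. *Ppara* itself had 2.256, 2.878 and 3.475 FPKM in the CON libraries and 6.104, 4.244 and 4.026 in the HSD libraries. All HSD libraries were above all CON libraries, as for 8.62% of the genes tested, and the log2 fold change of 0.65 over all 6 had a limma adjusted p of 0.764. Of the 11 receptors and coregulators of this list, 5 were positive in the study's libraries (median -0.054) and 6 in all (median 0.055), *Rxra* (0.83) and *Med1* (0.48) having the largest values after *Ppara* (0.88).

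*Cyp4a12a* belongs to the genes that differ between the sexes in mouse liver under the pattern of growth hormone. Of 10 other male-biased genes, 7 were positive in the study's libraries (median 0.67) and 5 in all (median 0.060, or -0.33 without CON14L and 0.47 without HS5L). *Cyp7b1*, an oxysterol hydroxylase, had a log2 fold change of 2.20 in the study's libraries (limma adjusted p = 0.0574). *Selenbp2* had -2.04 (limma adjusted p = 0.0941) and *Moxd1* -2.26 (0.1), and over all 6 libraries both were lower in every HSD library than in any CON library, as were 3.47% of the genes tested. Of 10 female-biased genes only *Cyp17a1* had enough signal (0.48). Of 8 genes of the growth hormone axis, 4 were positive in the study's libraries (median 0.14) and 6 in all (median 0.25), and *Igfals* (1.43), *Cish* (-1.10) and *Ghr*, the receptor (0.91), had the largest values.

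With mitochondrially encoded genes left out, the medians of these lists in the study's libraries were 0.48 for the mitochondrial targets, 0.084 for the omega-oxidation partners, -0.011 for the peroxisomal genes, -0.0055 for the other PPARα targets and -0.096 for the male-biased genes, where the median of all genes was -0.43. On that scale the log2 fold changes of *Cyp4a10*, *Cyp4a14* and *Cyp4a31* were 2.52, 2.96 and 1.95. Those of *Cyp4a12a*, *Cyp4a12b* and *Cyp4a32* were -1.06, -0.79 and -0.72, below the median of all genes. Since the liver contrast chose the family, the members are not ranked against the lists.

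Between tissues, the comparison in CON mice asked where the family is expressed, without the diet. *Cyp4a12a* had 0.5407, 0.4086 and 0.2233 FPKM in CON16W, CON71W and CON72W, against 60.03 to 154.6 in CON liver. The difference of liver and WAT was 7.003 on the log2(FPKM + 0.5) scale (SE 0.37, limma, Benjamini-Hochberg adjusted p = 2.63e-07). *Cyp4a10* had 0.057 to 0.414 FPKM in CON WAT, and a difference of 4.76 (SE 0.64, limma adjusted p = 8.26e-05). *Cyp4a12b* had 0.1302 to 0.251 FPKM and a difference of 5.07 (SE 0.16, limma adjusted p = 2.88e-08).

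*Cyp4a14* had 0.0719, 0.279 and 0.0231 FPKM in CON WAT, with a difference from liver of 2.96 (SE 0.50, limma adjusted p = 0.000403). *Cyp4a32* had the highest level of the family in CON WAT, at 0.7308, 0.4296 and 0.6261 FPKM, with a difference of 3.29 (SE 0.30, limma adjusted p = 6.37e-06). For every member all CON liver libraries were above all CON WAT libraries, as for 9.39% of the genes tested. By the ratio of mean FPKM, liver was 314 times WAT for *Cyp4a12a*, 125 times for *Cyp4a12b*, 98.1 times for *Cyp4a10*, 43.5 times for *Cyp4a14* and 18.5 times for *Cyp4a32*. *Cyp4a31* (0.024 to 0.0526 FPKM in CON WAT) stayed under the filter, a mean of 0.5 FPKM over the libraries compared, and was not tested, with a ratio of 20.6.

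The members that were tested passed the filter through the liver libraries only, so their number says nothing of the family. Without the filter, when every gene with a fragment in these libraries was tested, the limma adjusted p was 1.01e-06 for *Cyp4a12a*, 1.46e-07 for *Cyp4a12b*, 0.000202 for *Cyp4a10*, 0.000824 for *Cyp4a14* and 1.85e-05 for *Cyp4a32*. Of all 12637 genes tested, 7.26% were called higher in liver than in WAT, and 917 higher stood against 7851 lower. With median-ratio scaling 2625 were higher and 2564 lower, and the differences of the members were then 8.10 for *Cyp4a12a*, 6.03 for *Cyp4a12b*, 5.76 for *Cyp4a10*, 4.45 for *Cyp4a32* and 3.78 for *Cyp4a14*. The median difference of all genes was -1.36 without and 0.026 with this scaling.

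Muscle held almost no Cyp4a fragments. *Cyp4a12b* and *Cyp4a31* had 0 in all 6 muscle libraries, which allows up to 3 fragments per library for counting error only. *Cyp4a12a* had up to 9 fragments (0.3322 FPKM, in CON72M), *Cyp4a10* and *Cyp4a32* up to 2, and *Cyp4a14* up to 1. In CON mice, the difference of liver and muscle was 7.51 for *Cyp4a12a* (SE 0.37, limma adjusted p = 3.43e-07), 5.30 for *Cyp4a10* (SE 0.64, limma adjusted p = 6.88e-05) and 3.23 for *Cyp4a14* (SE 0.50, limma adjusted p = 0.000343). Without the filter these limma adjusted p-values were 1.42e-06, 0.000182 and 0.000757. *Cyp4a12b*, *Cyp4a31* and *Cyp4a32* had 0 fragments in all 3 CON muscle libraries, and no fold is given. Of all genes, 15% were called higher in liver than in muscle, and 1893 higher stood against 4436 lower, or 2941 against 3095 with median-ratio scaling.

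**Figure D5:**
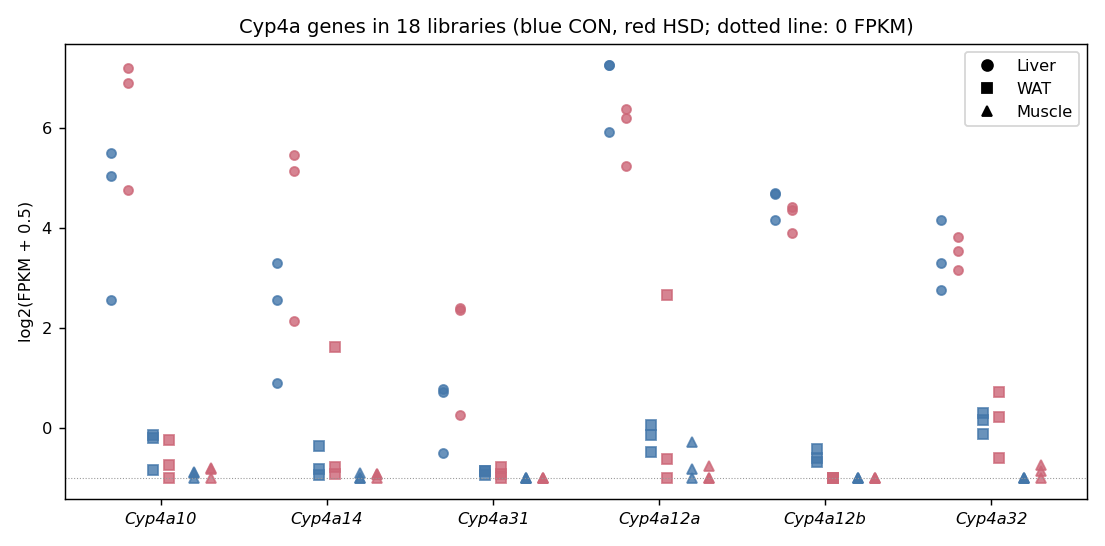
Level of each Cyp4a gene (x axis) as log2(FPKM + 0.5) (y axis, the dotted line marks 0 FPKM) in each of the 18 libraries, with circles for liver, squares for WAT and triangles for muscle, CON in blue and HSD in red. In CON mice every liver value of a gene lies above its WAT and muscle values, and in WAT the library HS3W stands above the others for *Cyp4a12a* and *Cyp4a14*.

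Between HSD and CON in WAT, the members were low in nearly every library. *Cyp4a12a* had 0.1513 FPKM in HS2W, 5.808 in HS3W and 0 in HS5W, against 0.2233 to 0.5407 in CON WAT, or 173 fragments in HS3W against 0 to 21 in the other libraries. *Cyp4a14* had 0.0845, 2.595 and 0.0294 FPKM, with 83 fragments in HS3W against 1 to 11 in the others. HS3W alone was high for both, and it is the library that held epididymal transcripts.

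The log2 fold change was 0.53 for *Cyp4a12a* (SE 0.99) and 0.68 for *Cyp4a14* (SE 0.76), and both passed the filter only through HS3W, so that no p is given. With limma's arrayWeights, which gives less weight to libraries that deviate, the log2 fold changes were -0.43 and -0.073. Without HS5W, and with HS3W kept, they were 1.202 for *Cyp4a12a* and 1.128 for *Cyp4a14*. *Cyp4a30b*, the neighbour of *Cyp4a14* in the cluster, had 8.306 FPKM (156 fragments) in HS3W and 0 in the other 17 libraries of the series, and *Cyp4a29* had 1 fragment, also in HS3W. *Cyp4a12b* had 0 fragments in HS3W beside the 173 of *Cyp4a12a*, while in liver 298 to 710 fragments of *Cyp4a12b* stood beside 776 to 4353 of *Cyp4a12a*. In HS3W, 7 of 24 hepatocyte genes reached 1 FPKM, the median one at 0.0366% of its CON liver mean, whereas *Cyp4a14* stood at 47.8% and *Cyp4a12a* at 4.74% of theirs. The part of the epididymal transcripts in these values was not tested.

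*Cyp4a32* had 0.6679, 0.1588 and 1.144 FPKM in HS2W, HS3W and HS5W, which overlapped the CON values on both sides. Its log2 fold change was -0.0087 (SE 0.40, limma adjusted p = 0.99), 0.35 without HS3W (limma adjusted p = 0.453) and -0.31 without HS5W. *Cyp4a10* and *Cyp4a31* overlapped as well, at means of 0.150 and 0.0394 FPKM in HSD and 0.282 and 0.0421 in CON WAT, under the filter.

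*Cyp4a12b* had 5, 6 and 10 fragments in CON16W, CON71W and CON72W and 0 in all 3 HSD libraries, each of which allows up to 3. It stayed under the filter and was not tested. Of the genes tested in WAT, 12.4% were lower in HSD without overlap. The hepatocyte genes had the same order of the groups. In CON WAT, 22 to 24 of 24 were at 1 FPKM or more and the median one stood at 0.513% to 1.22% of its CON liver mean, while in HSD WAT 6 to 9 of 24 reached 1 FPKM and the median one stood at 0.0366% to 0.0875%. The summed level of the list was 3408 to 3806 FPKM in CON and 1141 to 3694 in HSD, and 2 of its genes were at 0 in HS5W. *Cyp4a12b* in CON WAT was at 0.573% to 1.10% of its CON liver mean, and *Cyp4a12a* at 0.182% to 0.441%. The part of the hepatocyte transcripts in these values was not tested.

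Over all genes in WAT, limma called 0 of 13740 (0%), with 2298 at an unadjusted p under 0.05, 0 with limma voom, 220 with limma's arrayWeights and 160 without HS3W. In muscle all members were under the filter in both diets, and no difference was detectable at this depth. Of 10834 genes tested there, 0.323% were called, 11 higher and 24 lower, or 13 and 14 with median-ratio scaling. Between diets, the p-values measure the spread between the mice of each group, 1 library per mouse and tissue. Between tissues, they rest on 1 spread pooled over liver, WAT and muscle. The low values of the members in WAT and muscle make that spread smaller than that of liver. CON16 and CON72 gave a library to each tissue and CON71 to WAT and muscle, and the main fit took these as independent.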

How the data were processed

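RNA of liver, WAT and muscle was measured in 18 libraries, 3 CON and 3 HSD mice for each tissue, grouped by their labels. After trimming by cutadapt and alignment by hisat2 to build mm10, the authors used cuffdiff to obtain FPKM for the genes of an Ensembl annotation, whose release is not given in the sources used here. The FPKM as deposited were used. They were whole fragments at the GENCODE M21 exon length for 18343 of 18822 genes above 0 (97.5%, tolerance 0.02), at another length for 432, and 47 had none. All 6 Cyp4a genes were whole at the annotated length. Library totals recovered this way were 7628071 to 16637488 fragments, so 1 fragment is a small step for liver values and a large one for values in WAT and muscle.

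Genes with a mean of at least 0.5 FPKM were fitted on log2(FPKM + 0.5) by limma 3.58.1 (R 4.3.3, eBayes with trend), with Benjamini-Hochberg adjustment over all genes. A pseudocount of this size understates the change of low genes. A call needed an adjusted p under 0.05 and an absolute log2 value of at least 1. Diets were compared within each tissue, and tissues within the 9 CON libraries in 1 fit. The script was tested on simulated data. Alternatives were no filter or a mean of at least 1 FPKM, other pseudocounts (0.1 and 1), median-ratio scaling, mitochondrially encoded genes left out, limma arrayWeights, limma voom on the recovered fragments, the replicate number as a block, the mouse as a random block between tissues, and each library left out.

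The members, the gene lists and the tests were chosen with earlier results of these data known. The lists were other Cyp4 genes, omega-oxidation partners, peroxisomal, mitochondrial and other PPARα targets, receptors and coregulators, male-biased and female-biased genes, the growth hormone axis, and markers of hepatocytes, adipocytes, skeletal muscle and epididymal epithelium. Genes were named by rule, namely the members, up to 3 of each list with the largest absolute log2 fold change in the study's 4 liver libraries, *Ppara*, *Por*, *Ehhadh*, *Cpt1a* and *Cyp4f14*, and the 5 genes most like *Cyp4a14* and *Cyp4a12a*. *Cyp4a29* and *Cyp4a30b* were singled out after their values were seen. Some genes that this rule names are not reported here.

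Replicate numbers could pair CON and HSD libraries, but the labels state no pairing. Deviations from the group means correlated between same-numbered libraries at 0.383, 0.177 and 0.184 in muscle. The values were -0.473, 0.395 and -0.213 in liver, and -0.197, 0.0608 and 0.414 in WAT. WAT and muscle number the same mice alike, so these values do not settle whether the numbers pair. Sequences were read from GENCODE M21 transcripts, and their mm10 positions from the exons of that annotation. Shared windows were taken over a whole transcript of each gene, not only its coding part. Python 3.11.15, numpy 2.4.6, pandas 2.3.3 and matplotlib 3.10.9 were used for the rest.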

Additional observations from a re-analysis of the deposited data

How the results depend on the processing

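The log2 differences of the members between liver and the other tissues were positive under every alternative run, the fit without a filter included. In WAT *Cyp4a32* was not called under any alternative run in which it passed the filter (limma adjusted p of 0.453 to 0.991). Signs changed in WAT. *Cyp4a32* became 0.014 with a pseudocount of 1 and 0.27 with limma's arrayWeights, *Cyp4a12a* -0.43 with arrayWeights and -0.69 with limma voom, and *Cyp4a14* -0.073 with arrayWeights. With each library left out in turn, *Cyp4a32* ranged from -0.31 to 0.35.

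The 35 calls in the study's 4 liver libraries became 19 and 238 with pseudocounts of 0.1 and 1, 0 without a filter, 322 at a mean of at least 1 FPKM, 15 with median-ratio scaling, 196 without mitochondrially encoded genes, 757 with arrayWeights and 3 with voom, and 34 to 3153 with a library left out, the highest without CON72L, 1011 without CON14L and 167 without HS2L. For all liver libraries arrayWeights gave 926 in place of 0 and leaving out a library 0 to 1, for WAT 220 and 0 to 160, the highest without HS3W. The 35 muscle calls became 7 without a filter and 63 with voom, and 10 to 61 with a library left out, the lowest without CON72M and the highest without HS2M. Without CON16M they were 13, without HS3M 15 and without HS5M 23. The 8768 calls between liver and WAT became 5189 with median-ratio scaling. The cause of these changes was not tested. limma's arrayWeights did not reach its convergence tolerance for all liver libraries and for the tissue comparisons. Where 1 library of a group was left, it was assumed to vary like the others.

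With the replicate block, muscle had 54 calls in place of 35, and no other call changed. For liver and WAT the block left both counts at 0. Since the labels state no pairing, the muscle count with the block is an alternative only.

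Without mitochondrially encoded genes, list medians in the study's liver libraries were -0.80 for other Cyp4 genes, 0.084 for omega-oxidation partners, -0.011 for peroxisomal genes, 0.48 for mitochondrial targets, -0.0055 for other PPARα targets, -0.68 for receptors and coregulators, -0.096 for male-biased genes and -0.56 for the growth hormone axis. Over all liver libraries they were -0.33 for other Cyp4 genes, -0.23 for receptors and coregulators and -0.091 for the growth hormone axis. The axis had -0.046 and 0.14 with median-ratio scaling of the study's and of all libraries, and 0.33 with arrayWeights over all. Other PPARα targets had 0.62 with arrayWeights over all libraries, and other Cyp4 genes -0.31 at a mean of at least 1 FPKM in the study's. With a library left out, the medians in the study's libraries ranged from -0.55 to -0.18 for other Cyp4 genes, 1.12 to 1.56 for mitochondrial targets, 0.39 to 1.13 for other PPARα targets, -0.19 to 0.19 for receptors and coregulators, 0.26 to 0.94 for male-biased genes and 0.30 to 0.49 for the growth hormone axis, and 0.45 to 1.12 for omega-oxidation partners and 0.46 to 0.79 for peroxisomal genes. Over all libraries they ranged from -0.22 to 0.25, -0.22 to 0.15 and 0.13 to 0.37 for other Cyp4 genes, receptors and coregulators, and the axis, and from 0.12 to 0.78, 0.18 to 0.52, 0.30 to 1.00, -0.16 to 0.51 and -0.33 to 0.47 for partners, peroxisomal genes, mitochondrial targets, other PPARα targets and male-biased genes.

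Depth limits the low values. *Cyp4a31* rests on 4 fragments in CON14L, and a count of 0 in WAT or muscle allows up to 3.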

Other observations

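Outside liver, the pathway partners of the Cyp4a enzymes showed no call by limma in WAT. Of 9 omega-oxidation partners tested there, 3 were higher and 6 lower in HSD (median log2 fold change -0.36), of 17 peroxisomal genes 4 and 13 (median -0.047), and of 15 mitochondrial targets 4 and 11 (median -0.053), beside a median of 0.080 for all genes. limma voom called none of these, and arrayWeights called 1 peroxisomal gene. Of 24 hepatocyte genes 23 were lower in HSD WAT (median -2.50), with 0 called, 21 at an unadjusted p under 0.05, 0 with voom and 20 with arrayWeights, beside 2298 and 220 of all 13740 genes at that p and with arrayWeights. Of 20 epididymal genes all 20 were higher (median 2.98), with 0 called by limma, voom or arrayWeights and 0 at an unadjusted p under 0.05, and their level came from HS3W. In muscle, 3 of 14 peroxisomal genes were higher and 11 lower (median -0.11), and 5 and 10 of 15 mitochondrial targets (median -0.12), with 0 called by limma, beside a median of -0.060 for all genes.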
